A study of Mus musculus with 38 samples.

Results

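Microglial RNA collected 7 days after a dose of the TREM2 antibody DNL919 was compared with microglial RNA collected 1 day after the same dose. The comparison used 16 of the 38 libraries of the study, 8 of day 7 and 8 of day 1, chosen by treatment and day in their titles, and no control group entered it. Levels in 8 libraries of the isotype control ATV:DNP02 of day 1 and in 8 of DNL919 day 4 are given in places as background, without a test. Every mouse was on the C57BL/6J strain, 3 months old, hemizygous for a bacterial artificial chromosome that carries the human TREM2 gene, with exons of the neighbouring TREML1 and TREML2 genes deleted, and homozygous for the knocked-in human part of the transferrin receptor (hTfR). Every mouse received 10 mg/kg DNL919 on day 0, and by their labels the groups differed only in the number of days from dose to collection. Viable cells positive for CD11b, a surface protein of microglia that monocytes and neutrophils also carry, were sorted after perfusion, and their polyadenylated RNA was sequenced. One label names cortex and hippocampus as the region and the protocol names brain without cerebellum. DNL919 is taken here as the antibody the study calls ATV:TREM2, which crosses into the brain by binding the human part of the transferrin receptor. No gene of the count sheet stands for the human TREM2 transgene, so Trem2 below is the mouse gene.

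TREM2 is a lipid-sensing receptor of microglia that signals through the adaptor Tyrobp and the kinase Syk. Its activation is known to promote survival, division and metabolic activity of these cells. Microglia at rest express a homeostatic set of genes such as P2ry12, which is lowered when the cells respond to injury, and activated microglia can take on a disease-associated set of genes such as Apoe, Lpl and Cst7.

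The mice were taken in 4 batches, with 2 libraries of each day in every batch. Day 1 and day 7 libraries of a batch shared their takedown date in 4 of 4 batches. Females made up batches 1 and 2, and males batches 3 and 4, and the effects of sex and of batch pair cannot be told apart. Total counts ran from 1.67 to 6.42 M (1 M is 1000000 counts) per library, with a mean of 4.17 ± 1.36 M on day 1 and 2.55 ± 0.818 M on day 7 (SD, n = 8 each; p = 0.00715 by exact permutation and 0.0350 after adjustment over 5 measures). Noncoding transcripts took 3.38% ± 0.97 of counts on day 1 and 5.11% ± 1.72 on day 7 (SD, n = 8 each; p = 0.0256 by exact permutation and 0.0427 after adjustment over 5 measures), and their share was higher on day 7 in 4 of 4 batches. Malat1, itself a noncoding transcript, made up much of this share. It had a mean of 26166 per 1000000 counts on day 1 and 36505 on day 7 (scaled by TMM, n = 8 each). The part that depth and the noncoding share play in the results below was tested only through the alternatives that thin the counts or add the share as a covariate. Of 14 microglia markers checked, among them P2ry12, Tmem119, Cx3cr1, C1qa and Csf1r, every marker was detected in all 16 libraries.

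One library stood apart by markers of another cell type. Day 7 replicate 7, a male of batch 4, held 48070 CPM (counts per 1000000 counts, scaled by TMM) of 14 neutrophil markers summed, and the other 15 libraries held between 71.5 and 693 CPM. Of these 14 markers, 12 had their highest level in this library, with S100a8 at 17363 CPM, Ngp at 9646 CPM and Camp at 8489 CPM, and Camp and Ngp stayed at or below 0.143 and 0.332 CPM in the others. Its summed monocyte markers were 3772 CPM, against 134 to 509 CPM in the other 15. Its mitosis genes summed to 1625 CPM, the highest of the 16 libraries. Counts and calls that this library moved most are given below with and without it.

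**Figure D1:**
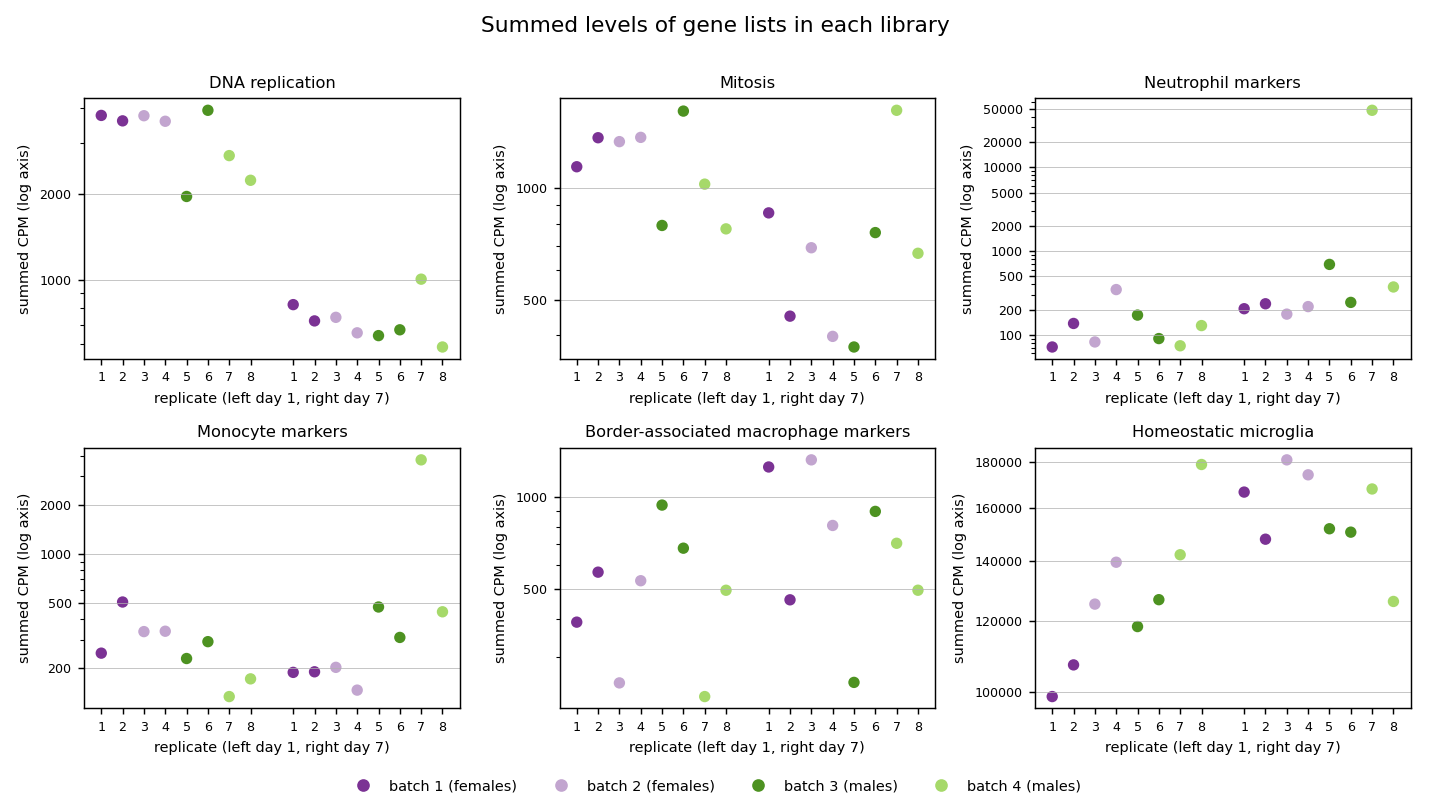
Summed CPM (log axis) of 6 gene lists in each of the 16 libraries, with day 1 on the left and day 7 on the right of each panel and points coloured by batch. Neutrophil and monocyte markers stood far above the rest in day 7 replicate 7 (48070 and 3772 CPM), and DNA replication genes were lower in all 8 day 7 libraries (at most 1008 CPM) than in any day 1 library (at least 1958 CPM).

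Between day 1 and day 7 the microglial transcriptome changed broadly. Of 9651 genes tested with limma-voom, 2853 (29.6%) changed at an adjusted p under 0.05, of which 1305 (13.5%) were higher on day 7 and 1548 (16%) were lower. Of the genes that changed, 850 genes fell and 667 rose at least 2-fold. In 401 genes (4.16%) the 8 day 7 libraries lay outside the range of the 8 day 1 libraries, 318 of them lower and 83 higher. The median log2 fold change over all genes was 0.04. Of the 2853 genes, 2716 had the same direction in each of the 4 batches. The calls came from these same libraries, so this agreement is no separate test. Without day 7 replicate 7 the count of changed genes was 2943, and without the 2 day 7 libraries with the highest noncoding share, replicates 6 and 8, it was 2668. In bulk RNA of sorted cells, fewer cells with a transcript and less of it per cell cannot be told apart.

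**Figure D2:**
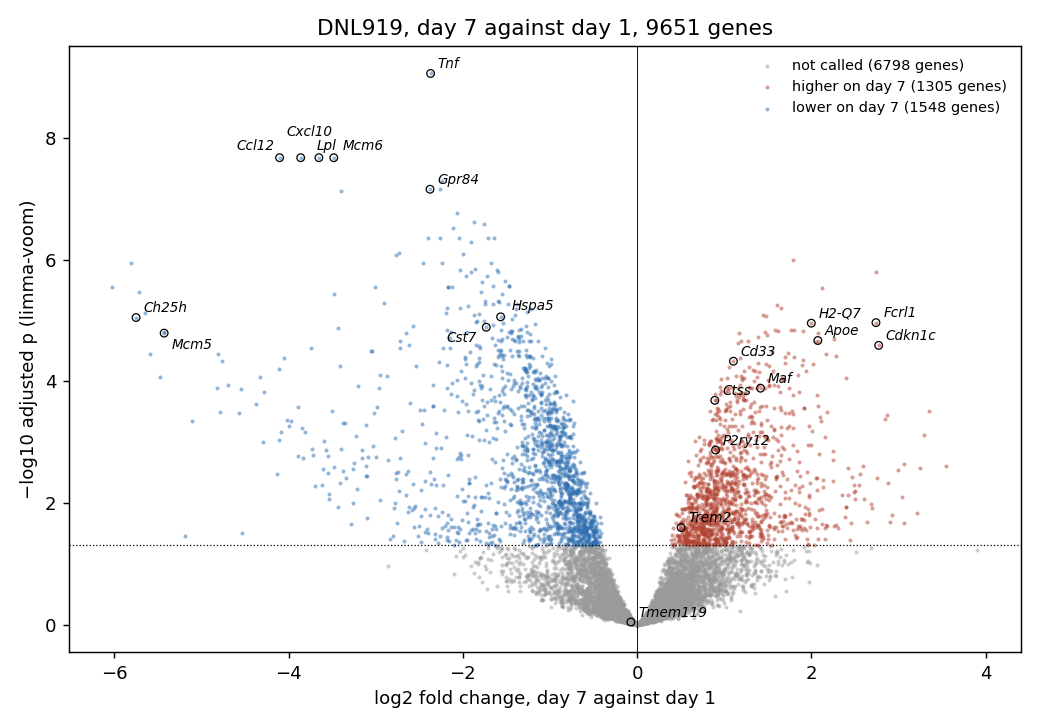
Log2 fold change of day 7 against day 1 (horizontal) and −log10 of the limma-voom adjusted p (vertical) for 9651 genes, with the dotted line at an adjusted p of 0.05 and selected genes ringed. The genes furthest up the plot, Tnf, Ccl12, Cxcl10, Lpl and Mcm6, lie on the side of lower levels on day 7.

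Chemokines and cytokines were among the largest falls. Ccl12 (ENSMUSG00000035352, GRCm38 chromosome 11, 82101845 to 82103400), which attracts monocytes, ran from 4693 through a median of 33107 to 52698 CPM on day 1 and from 579 through 1584 to 3057 CPM on day 7. The groups did not overlap, although day 1 replicate 8 was far below the other 7 libraries of its day. Its log2 fold change was −4.10 ± 0.33 (SE; limma-voom adjusted p = 2.13e-08). Cxcl10, an interferon-induced chemokine that attracts T cells, had a median of 3188 CPM on day 1 (541 to 5580) and 204 CPM on day 7 (38.6 to 510), a fitted difference of −3.86 ± 0.31 on the log2 scale (SE; adjusted p = 2.13e-08). Tnf (ENSMUSG00000024401, chromosome 17, 35199381 to 35202007), a central inflammatory cytokine, had the smallest p of the named genes. It ran from 1256 through 1916 to 2051 CPM on day 1 and from 262 through 321 to 416 CPM on day 7, a fitted difference of −2.37 ± 0.15 on the log2 scale (SE; adjusted p = 8.78e-10). All 3 genes had no overlap between the days and stayed called in males alone and in females alone.

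Of 36 cytokines and chemokines tested, 17 (47.2%) fell and 3 (8.33%) rose, beside 16% and 13.5% of all genes. The median log2 fold change of the list was −0.59, and 11 fell with the noncoding share as a covariate. Other chemokines that fell included Ccl2 (−3.40) and Ccl7 (−3.37), which also attract monocytes, and Cxcl16 (−1.71, log2 fold changes). The interleukin 1 receptor antagonist Il1rn fell by 3.69 on the log2 scale, while Il1b, the cytokine, had a log2 fold change of 0.47 and was not called. Ccl3 (−0.44) and Ccl4 (−0.50) fell by much less than Ccl12. The 3 genes that rose were Ccl9 (0.60), Il16 (1.49) and Tnfsf12 (1.78), the last encoding the cytokine TWEAK. The falls of Cxcl13 (−5.19 ± 1.84, SE; adjusted p = 0.0355) and of interferon beta, Ifnb1 (−4.54 ± 1.56, SE; adjusted p = 0.0308), rested on few counts. Ifnb1 had a median of 22.6 CPM on day 1 (0 to 217) and 0 CPM on day 7 (0 to 9.15), and both calls ended when any of 5 libraries was left out. They ended too with no batch term (adjusted p = 0.117 for Cxcl13 and 0.105 for Ifnb1) and once the noncoding share entered as a covariate (−1.63 with 0.634 and −3.89 with 0.215).

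More genes of the NF-kB pathway fell than rose. NF-kB is a family of transcription factors that drives inflammatory genes. Of 35 pathway genes and targets tested, 15 fell (42.9%) and 4 rose (11.4%), beside 16% and 13.5% of all genes. The percent that rose was near that of all genes. The median log2 fold change was −0.43, and once the noncoding share entered as a covariate 6 fell and 3 rose, with a median of −0.09. Gpr84, which binds fatty acids of medium length, had a median of 2285 CPM on day 1 (830 to 2553) and 407 CPM on day 7 (169 to 614), a fitted difference of −2.38 ± 0.21 on the log2 scale (SE; limma-voom adjusted p = 7.01e-08). The receptor genes Cd40 (−3.97) and Tlr2 (−1.59) and the subunit gene Nfkb2 (−1.36) fell too. Rel (1.18), another subunit of the family, and Tnfaip3 (0.48), which encodes an inhibitor of the pathway, rose. Rela and Nfkb1 had log2 fold changes of 0.51 and 0.29 and were not called.

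Of 74 interferon-stimulated genes tested, 42 (56.8%) fell and 1 rose, with a median log2 fold change of −0.98. These genes carry out and tune the antiviral state that type I interferon sets off. With the noncoding share as a covariate 28 of the list fell and 2 rose, with a median of −0.91. Sensors and antiviral effectors included Zbp1, a sensor of nucleic acids in Z form (−3.43 ± 0.46), Oasl1 (−5.11), the ubiquitin-like Isg15 (−3.04), Rsad2 (−3.09) and Ifit1 (−2.62, log2 fold changes). Zbp1 had a median of 111 CPM on day 1 (65.0 to 251) and 15.6 CPM on day 7 (1.02 to 37.4), without overlap (limma-voom adjusted p = 1.33e-05). Usp18, which removes Isg15 from proteins and dampens interferon signalling, fell by 2.91 ± 0.36 on the log2 scale (SE; adjusted p = 5.15e-06), with 1 day 1 library inside the day 7 range. Among genes of interferon signalling itself Irf7 fell by 1.98 on the log2 scale, and Stat2 (−0.83), Irf9 (−0.14) and Irf1 (−0.26) were not called. Uba7, the enzyme that activates Isg15, rose (1.00). Without overlap of the days were 5 of the 74, a share near the 4.16% of all genes.

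The promoter of Bst2, which encodes a membrane protein that tethers viruses, is shown as an example. It was picked from the 32 interferon-stimulated genes that fell and had an entry in the RefSeq promoter table (GRCm38.p6). Zbp1 and Usp18 had none. The window runs from 250 bases before to 50 after the gene start, 5′ to 3′, and capitals mark the letters GAAANNGAA of an interferon-stimulated response element on either strand. It lies on the minus strand at chr8:71537423-71537722, and its 2 matches overlap.
Bst2: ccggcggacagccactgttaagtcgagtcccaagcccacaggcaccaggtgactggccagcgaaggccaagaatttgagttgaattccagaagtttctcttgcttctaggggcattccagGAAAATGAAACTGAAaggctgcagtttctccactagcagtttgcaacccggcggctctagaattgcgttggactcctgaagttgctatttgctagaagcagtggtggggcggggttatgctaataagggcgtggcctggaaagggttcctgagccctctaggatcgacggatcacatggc
Bst2 had a median of 336 CPM on day 1 (148 to 427) and 109 CPM on day 7 (69.6 to 156), a fitted difference of −1.44 ± 0.20 on the log2 scale (SE; limma-voom adjusted p = 1.50e-05). Of the 42 interferon-stimulated genes that fell, 32 had a promoter in the table and 18 of these (56.2%) held the letters, against 2317 of 27025 promoters in all (8.57%). A match of letters is a description and does not show a bound site.

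The DNA replication machinery fell nearly as a whole. Of 53 replication genes tested, 50 (94.3%) fell and 0 rose, with a median log2 fold change of −2.51, and in 31 of them the days did not overlap. Summed over the list, day 1 libraries held 1958 to 3914 CPM and day 7 libraries 584 to 1008 CPM, while the isotype control libraries had a median of 556 CPM. The helicase that unwinds DNA was represented by Mcm2 (−3.74), Mcm3 (−2.72), Mcm4 (−2.65), Mcm5 (−5.43 ± 0.75), Mcm6 (−3.48 ± 0.28) and Mcm7 (−2.40 ± 0.24, log2 fold changes), and all 6 fell. Mcm6 (ENSMUSG00000026355, chromosome 1, 128331590 to 128359664) ran from 87.4 through 121 to 174 CPM on day 1 and from 2.48 through 11.5 to 15.7 CPM on day 7 (limma-voom adjusted p = 2.13e-08). Its isotype control libraries had a median of 6.28 CPM (2.34 to 17.9). Each of the 4 batches had a negative median for the list, from −1.97 in batch 4 to −3.18 in batch 2.

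Other parts of the replication fork followed the same direction. Timeless (−5.71) and Tipin (−2.73), which stabilize the fork, fell, as did the polymerase genes Pole (−3.62) and Pola1 (−3.02), the sliding clamp Pcna (−1.76) and the nucleotide-supplying enzymes Rrm2 (−2.48) and Tyms (−2.23). The transcription factor gene E2f1, a driver of replication genes, fell by 3.16 on the log2 scale, and Ccne2, the cyclin of entry into DNA replication, by 4.78 ± 0.88 (SE; limma-voom adjusted p = 0.000316). Not called were Dna2 (−1.03), Pola2 (−0.45) and Pold3 (−0.45). Cdkn1c, an inhibitor of cyclin-dependent kinases, was among the largest rises, from a median of 4.78 CPM on day 1 (2.30 to 8.40) to 31.9 CPM on day 7 (16.5 to 59.1), a fitted difference of 2.77 ± 0.40 on the log2 scale (SE; adjusted p = 2.57e-05).

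Mitosis genes did not fall as uniformly as replication genes. Of 50 tested, 18 (36.0%) fell and 1 rose, with a median log2 fold change of −1.43. In 3 of the 50 the days did not overlap, a share near the 4.16% of all genes. Cdk1, the kinase that starts mitosis, fell from a median of 32.5 CPM (10.8 to 46.5) to 4.04 CPM (2.50 to 11.8), a fitted difference of −2.35 ± 0.42 on the log2 scale (SE; limma-voom adjusted p = 0.000260). Smc2, a condensin subunit that compacts chromosomes, fell by 1.77 ± 0.34, and the spindle checkpoint genes Bub1 and Mad2l1 by 3.25 and 2.46 on the log2 scale. Cenpa, the histone variant of the centromere, rose (2.69). The proliferation markers Birc5 (−1.49 ± 0.84, SE; adjusted p = 0.191) and Mki67 (−0.76 ± 0.70, SE; adjusted p = 0.447) were not called. Birc5 ran from 21.4 to 66.3 CPM on day 1 and from 0 to 96.5 CPM on day 7, where the highest value was that of day 7 replicate 7.

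The mitosis result was weaker with that library, whose neutrophil markers stood apart, than without it. Without it 26 mitosis genes fell and 1 rose, with a median log2 fold change of −2.01, and Birc5 passed the test (−3.26; adjusted p = 0.00773). Within batches the median of the list was −1.73, −2.46 and −1.72 in batches 1 to 3 and 0.11 in batch 4, which holds the library. For DNA replication, 54 of the 57 listed genes fell without it, with a median of −2.81. In the day 7 libraries other than replicate 7 the mitosis sum ran from 372 to 858 CPM, and in the isotype control libraries its median was 380 CPM. The part of the neutrophil transcripts in the mitosis values was not tested beyond leaving out that library.

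Promoters of 3 helicase genes and of 2 mitosis genes are shown because they are among the genes described above that fell and have entries in the RefSeq table (GRCm38.p6), each window as for Bst2. In the helicase genes capitals mark E2F letters, TTTCCCGC or TTTGGCGC on either strand. Mcm5 lies at chr8:75109259-75109558 on the plus strand, Mcm6 at chr1:128359656-128359955 and Mcm7 at chr5:138171834-138172133 on the minus strand.
Mcm5: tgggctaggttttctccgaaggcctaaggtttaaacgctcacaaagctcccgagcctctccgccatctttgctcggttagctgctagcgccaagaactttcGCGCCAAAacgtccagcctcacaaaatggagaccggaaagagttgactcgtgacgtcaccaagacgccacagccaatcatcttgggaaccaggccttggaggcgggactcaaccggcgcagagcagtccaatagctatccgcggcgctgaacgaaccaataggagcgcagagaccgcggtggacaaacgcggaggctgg
Mcm6: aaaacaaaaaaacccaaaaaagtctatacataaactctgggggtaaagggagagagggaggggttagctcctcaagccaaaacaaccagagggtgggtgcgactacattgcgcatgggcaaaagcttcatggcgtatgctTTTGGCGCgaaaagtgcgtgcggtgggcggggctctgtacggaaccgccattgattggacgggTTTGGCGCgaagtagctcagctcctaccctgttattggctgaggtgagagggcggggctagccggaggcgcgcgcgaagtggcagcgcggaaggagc
Mcm7: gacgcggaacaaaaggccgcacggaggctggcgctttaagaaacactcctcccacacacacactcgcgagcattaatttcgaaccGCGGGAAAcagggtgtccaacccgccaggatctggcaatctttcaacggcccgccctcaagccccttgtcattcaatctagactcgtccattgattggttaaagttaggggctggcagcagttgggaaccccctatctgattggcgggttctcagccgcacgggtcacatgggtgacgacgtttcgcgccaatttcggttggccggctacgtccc
In Cdk1 (chr10:69352863-69353162, minus strand) and Smc2 (chr4:52438971-52439270, plus strand) capitals mark the letters TTTGAA of a CHR element and CCAAT of a CCAAT box on either strand.
Cdk1: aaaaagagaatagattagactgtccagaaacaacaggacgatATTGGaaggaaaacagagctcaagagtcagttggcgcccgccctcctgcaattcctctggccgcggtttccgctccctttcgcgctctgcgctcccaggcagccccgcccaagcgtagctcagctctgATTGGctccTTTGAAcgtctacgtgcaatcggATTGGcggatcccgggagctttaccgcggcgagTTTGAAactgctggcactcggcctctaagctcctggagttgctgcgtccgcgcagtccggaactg
Smc2: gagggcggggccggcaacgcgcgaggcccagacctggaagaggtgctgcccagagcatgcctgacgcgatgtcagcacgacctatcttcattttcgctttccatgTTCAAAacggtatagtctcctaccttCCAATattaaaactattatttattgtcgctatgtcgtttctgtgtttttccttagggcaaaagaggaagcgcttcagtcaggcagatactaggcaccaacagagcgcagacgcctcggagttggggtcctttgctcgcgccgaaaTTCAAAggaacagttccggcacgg
Of the 50 replication genes that fell, 38 had a promoter in the table, and 10 of these (26.3%) held E2F letters against 441 of 27025 promoters (1.63%). Among 14 of the 18 mitosis genes that fell, 7 (50%) held TTTGAA and 10 (71.4%) CCAAT, against 18.1% and 37.9% of all promoters. For the replication genes these shares were 15.8% and 68.4%.

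The machinery of protein production fell together. Of 79 cytosolic ribosomal protein genes tested, 54 fell and 2 rose, with a median log2 fold change of −0.78. Of 69 genes of ribosome biogenesis 39 fell and 0 rose (median −0.89), and of 54 translation initiation factors and tRNA synthetases 31 fell and 1 rose (median −0.71). With the noncoding share as a covariate 30 genes of ribosome biogenesis fell and 1 rose. Of the initiation factors and synthetases 25 then fell and 1 rose. Eif5a, a translation factor, had a median of 651 CPM on day 1 (321 to 713) and 166 CPM on day 7 (54.7 to 193), a fitted difference of −1.99 ± 0.21 on the log2 scale (SE; limma-voom adjusted p = 8.10e-07). The nucleolar chaperone Npm1 fell by 1.51 ± 0.17 and Nhp2, part of the particles that modify ribosomal RNA, by 1.91 ± 0.21, both without overlap of the days. Rps6, the ribosomal protein that is phosphorylated downstream of mTOR, fell by 1.94 ± 0.36 (SE; adjusted p = 0.000308). The transcription factor Myc, a driver of ribosome production, fell by 1.06 on the log2 scale. Many ribosomal protein genes have near-identical pseudogenes, and how the counting divided shared reads among them is not given in the sources used here.

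Protein folding, breakdown and amino acid supply followed. Of 35 proteasome genes tested, 31 (88.6%) fell and 0 rose, with a median log2 fold change of −0.97, and 14 had no overlap between the days. Psmd14, a subunit that removes ubiquitin chains, fell from a median of 199 CPM (112 to 257) to 56.2 CPM (27.8 to 75.0), a fitted difference of −1.78 ± 0.21 on the log2 scale (SE; limma-voom adjusted p = 2.38e-06). Of 33 chaperones of the endoplasmic reticulum 24 fell and 1 rose (median −0.96). With the noncoding share as a covariate 19 of these chaperones fell and 0 rose. Hspa5, the main one, had a median of 2569 CPM on day 1 (1011 to 3260) and 613 CPM on day 7 (502 to 1432). Its log2 fold change was −1.57 ± 0.20 (SE; adjusted p = 8.75e-06), and the ranges of the days overlapped. Among 22 genes of amino acid supply and targets of the stress factor ATF4, 9 fell and 1 rose (median −0.82), led in size by asparagine synthetase, Asns (−3.84). The enzymes of serine synthesis Phgdh (−1.97), Psat1 (−1.66) and Psph (−1.02) fell, while Atf4 itself (−0.11) and its target Ddit3 (0.06) were not called.

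**Figure D3:**
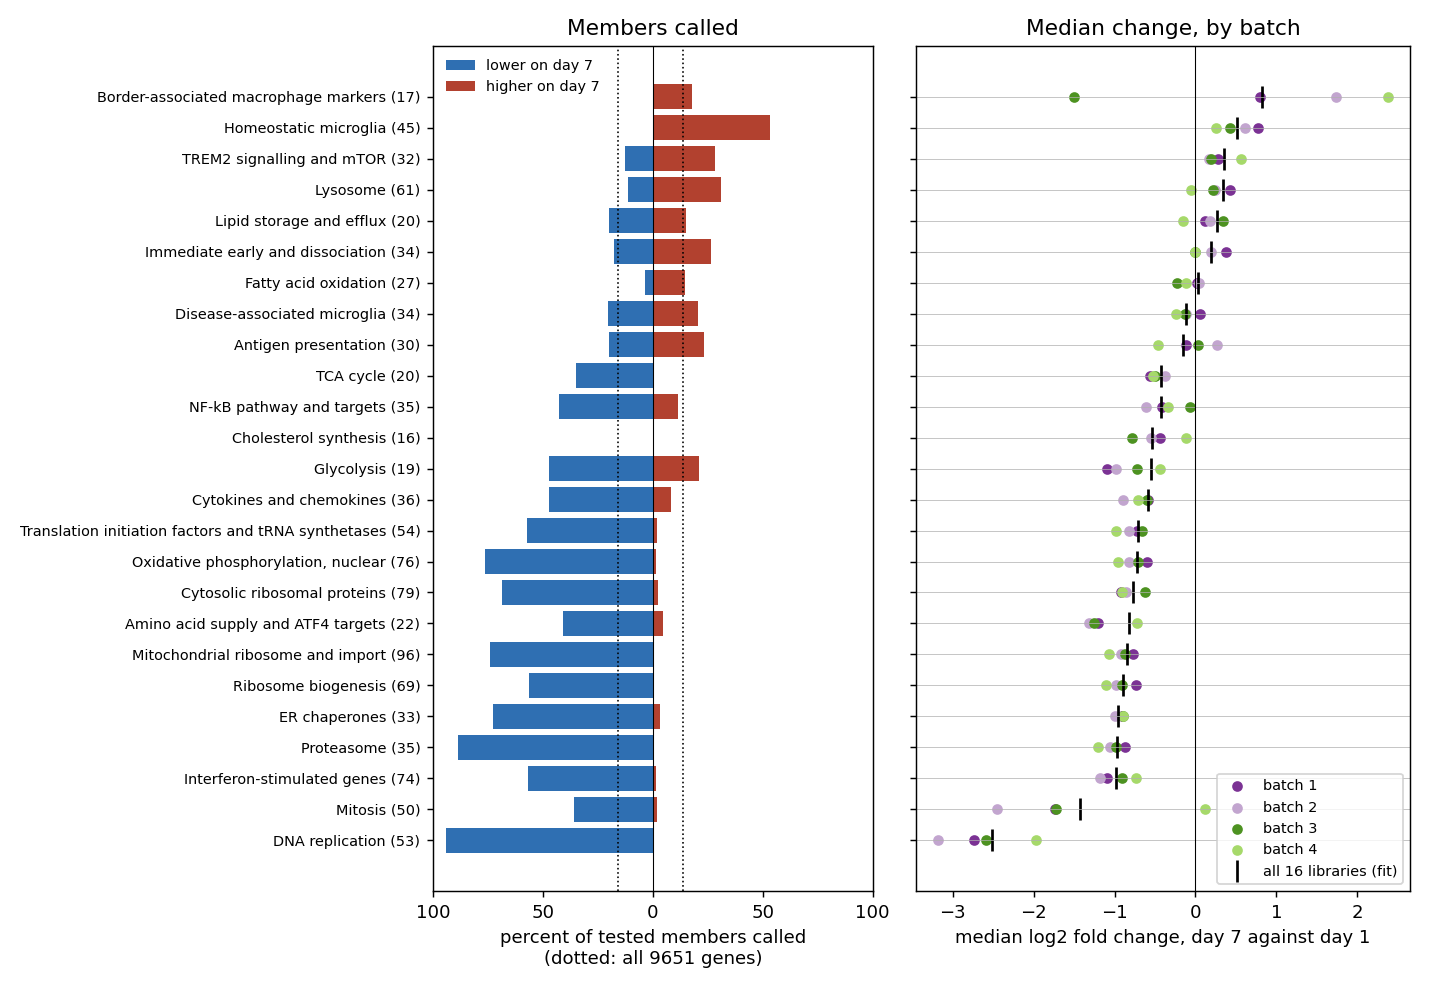
Left, percent of tested members of each gene list that were lower or higher on day 7 (limma-voom adjusted p under 0.05, number tested in brackets), with dotted lines at 16% lower and 13.5% higher for all 9651 genes. Right, median log2 fold change of each list in the fit of 16 libraries (black) and within each batch (points). Mitosis genes had a median of 0.11 in batch 4 and border-associated macrophage markers −1.50 in batch 3, on the other side of 0 from their other batches. So did, nearer to 0, the lists of lysosome (−0.05 in batch 4), lipid storage and efflux (−0.16 in batch 4) and disease-associated genes (0.06 in batch 1). Batches were also split in sign for antigen presentation, fatty acid oxidation and dissociation genes.

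Nuclear genes for mitochondrial proteins fell widely. Of 76 nuclear genes of oxidative phosphorylation, the respiratory chain and its ATP synthase, 58 (76.3%) fell and 1 rose, with a median log2 fold change of −0.73. Of 96 genes of the mitochondrial ribosome and protein import 71 fell and 0 rose (median −0.84). Atp5g1, a subunit of the ATP synthase, fell from a median of 453 CPM (200 to 663) to 164 CPM (94.4 to 179), a fitted difference of −1.49 ± 0.21 on the log2 scale (SE; limma-voom adjusted p = 1.85e-05). Of 7 tested genes encoded by the mitochondrial chromosome, mt-Nd1 fell (−0.72) and 6 were not called, and their median was 0.10. The summed level of that list was 4837 to 9991 CPM on day 1 and 4812 to 9126 CPM on day 7. All counts of the mitochondrial chromosome took 1.71% ± 0.432 on day 1 and 2.54% ± 1.01 on day 7 (SD, n = 8 each; p = 0.0496 by exact permutation and 0.0620 after adjustment over 5 measures). With the noncoding share as a covariate 44 nuclear genes of oxidative phosphorylation and 38 of the mitochondrial ribosome and import fell.

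Of 19 glycolysis genes tested, 9 (47.4%) fell and 4 (21.1%) rose, beside 16% and 13.5% of all genes, with a median log2 fold change of −0.55. Gapdh fell by 2.19 ± 0.29 and Ldha, which makes lactate, by 1.47 ± 0.17 (log2, SE; limma-voom adjusted p = 1.42e-05 and 2.76e-06), both without overlap of the days, and the glucose transporter Slc2a1 fell by 1.25. The 4 that rose were the regulators Pfkfb3 (0.71), Pfkfb4 (1.24) and Pdk1 (0.89) and the lactate dehydrogenase subunit Ldhb (0.94). In the TCA cycle 7 of 20 fell and 0 rose, with Idh3a lowest in p (−1.63 ± 0.23, SE; adjusted p = 2.55e-05). With the noncoding share as a covariate the TCA counts were 2 lower and 2 higher, with a median of −0.05, and 5 glycolysis genes fell. In fatty acid oxidation 4 of 27 (14.8%) rose and 1 fell, a share that rose close to the 13.5% of all genes. These were Acox3 (1.25 ± 0.21), a peroxisomal oxidase, Acsl1 (1.00 ± 0.28), which activates fatty acids, Acads (1.15) and Hadha (0.67). Of 16 cholesterol synthesis genes 0 were called by limma-voom.

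Of 20 genes of lipid storage and efflux tested, 3 rose (15%) and 4 fell (20%), shares near the 13.5% and 16% of all genes, and those described here were named by their p or chosen after their values were seen. Apoe (ENSMUSG00000002985, chromosome 7, 19696109 to 19699188), the main lipid carrier of the brain, ran from 361 through a median of 891 to 3854 CPM on day 1 and from 1143 through 3890 to 8081 CPM on day 7. Of the day 1 libraries, replicates 2 and 5 lay inside the range of day 7. Its log2 fold change was 2.07 ± 0.29 (SE; limma-voom adjusted p = 2.14e-05). Its day 4 libraries had a median of 2127 CPM and the isotype control libraries 1387 CPM (469 to 6091). Lpl, which releases fatty acids from lipoproteins, went the other way, from a median of 333 CPM (130 to 729) to 28.9 CPM (11.3 to 40.2), a fitted difference of −3.65 ± 0.29 on the log2 scale (SE; adjusted p = 2.13e-08). Ch25h, the enzyme behind 25-hydroxycholesterol, had the largest named fall, −5.75 ± 0.75 (SE; adjusted p = 8.99e-06), from a median of 531 CPM (15.2 to 679) to 6.71 CPM (0 to 51.0). The lipid uptake genes Cd36 (−1.31) and Fabp3 (−2.08) fell, and Npc1 (1.09), which moves cholesterol out of lysosomes, and Pnpla2 (1.10), which breaks down stored triglyceride, rose. The efflux transporters Abca1 (0.38) and Abcg1 (0.50) were not called.

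**Figure D4:**
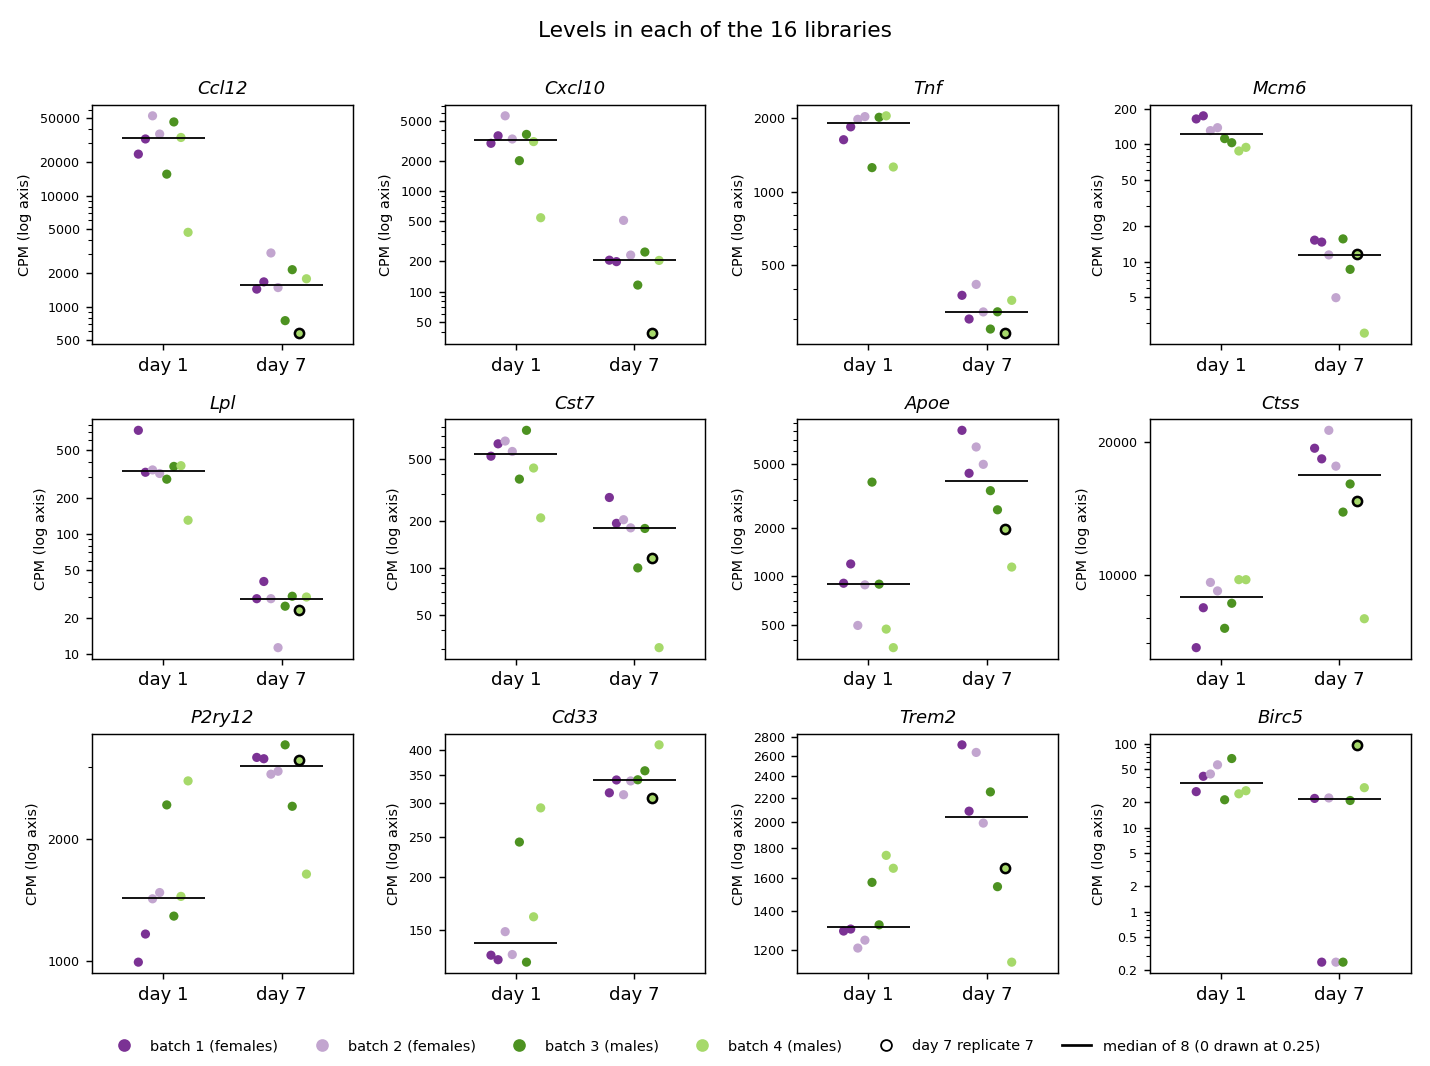
CPM (log axis) of 12 genes in each of the 16 libraries, coloured by batch, with day 7 replicate 7 ringed and lines at the medians of 8 libraries. Ccl12, Cxcl10, Tnf, Mcm6, Lpl and Cd33 had no overlap between the days, while Apoe, Ctss, P2ry12 and Trem2 overlapped.

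The disease-associated list, which shares Apoe, Lpl and Ch25h with the lipid list, also held genes that rose and genes that fell. Of 34 tested, 7 rose and 7 fell (20.6% each, beside 13.5% and 16% of all genes), with a median log2 fold change of −0.12. Without day 7 replicate 7 the counts were 6 higher and 12 lower. Besides Apoe and Trem2, Lyz2 (1.43), Ms4a7 (1.32), Timp2 (0.69), B2m (0.59) and Ctsl (0.51) rose. Besides Lpl and Ch25h, Capg (−2.18 ± 0.27), Cst7 (−1.73 ± 0.23), Cd52 (−1.18), Ctsz (−0.78) and Cd9 (−0.69, log2 fold changes) fell. Cst7, an inhibitor of cathepsins, had a median of 539 CPM on day 1 (209 to 762) and 180 CPM on day 7 (30.8 to 283), and the isotype control libraries 17.6 CPM (6.26 to 45.5). Several genes of this state were not called. Axl, a receptor for dying cells, had medians of 40.9 CPM on day 1 (10.1 to 82.8) and 40.0 CPM on day 7 (16.2 to 59.1), with a fitted difference of −0.06 ± 0.26 on the log2 scale (SE; limma-voom adjusted p = 0.882). Clec7a (−0.56 ± 0.23, SE; adjusted p = 0.0772), Itgax (0.24 ± 0.32; adjusted p = 0.609), Spp1 (−1.13 ± 0.79; adjusted p = 0.300) and Igf1 (0.52 ± 0.90; adjusted p = 0.704) were not called, and these p-values do not show that their levels were alike. Clec7a passed the test without any of 3 libraries, with an adjusted p of 0.0446 without day 1 replicate 1, 0.00962 without day 1 replicate 8 and 0.0212 without day 7 replicate 7.

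Homeostatic microglia genes rose. Of 45 tested, 24 (53.3%) rose and 0 fell, with a median log2 fold change of 0.51. P2ry12 (ENSMUSG00000036353, chromosome 3, 59216272 to 59262871), the purinergic receptor that steers microglial processes, ran from 996 through 1436 to 2780 CPM on day 1 and from 1640 through 3031 to 3409 CPM on day 7. The ranges overlapped, since the male day 1 replicates 5 and 8 were high and the male day 7 replicates 6 and 8 were low for their groups. Its log2 fold change was 0.90 ± 0.20 (SE; limma-voom adjusted p = 0.00135), and the isotype control libraries had a median of 4609 CPM (2546 to 5444). Cd33, an inhibitory sialic acid receptor, had no overlap, with 126 to 292 CPM on day 1 and 309 to 412 CPM on day 7 (1.11 ± 0.17, SE; adjusted p = 4.69e-05). Of the lineage transcription factors Maf (1.42 ± 0.24), Sall1 (0.92), Mef2a (0.97) and Mef2c (0.67) rose, and Irf8 (0.40) was not called. The leukotriene synthase Ltc4s rose by 1.23 ± 0.20. Tmem119 (−0.07 ± 0.34, SE; adjusted p = 0.904), Cx3cr1 (0.23) and the complement genes C1qa, C1qb and C1qc (0.17, 0.03 and 0.10) were not called. Tmem119 rose with the noncoding share as a covariate (0.91; adjusted p = 0.0418).

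The genes of the TREM2 receptor complex changed little or were not called. Trem2, the mouse gene, ran from 1209 through 1315 to 1748 CPM on day 1 and from 1143 through 2036 to 2713 CPM on day 7. Its log2 fold change was 0.51 ± 0.17 (SE; limma-voom adjusted p = 0.0254), the groups overlapped, and the call ended when any of 9 of the 16 libraries was left out (adjusted p from 0.00421 to 0.0892). Its adaptor Tyrobp had medians of 5498 and 6059 CPM and a fitted difference of 0.06 ± 0.16 on the log2 scale (SE; adjusted p = 0.818). Downstream, the kinase Syk (1.47), the lipid phosphatase Inpp5d (1.00 ± 0.19), the kinase subunits Pik3cg (0.99) and Pik3cd (0.89) and Rptor (1.13), part of mTOR complex 1, rose. Plcg2 (0.38), Akt1 (0.20) and Mtor (0.61) were not called. In the whole list of TREM2 signalling and mTOR genes 9 of 32 rose (28.1%) and 4 fell (12.5%), with a median of 0.35. Of all genes 13.5% rose and 16% fell. The survival receptor Csf1r (0.51 ± 0.25, SE; adjusted p = 0.134) was not called, and passed without day 1 replicate 5 (0.70; adjusted p = 0.0158) or without day 7 replicate 6 (0.67; adjusted p = 0.0277).

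Lysosomal genes leaned upward. Of 61 tested, 19 (31.1%) rose and 7 (11.5%) fell, beside 13.5% and 16% of all genes, with a median log2 fold change of 0.34. The median was −0.05 in batch 4, and once the noncoding share entered as a covariate 25 rose and 2 fell. Ctss, a cathepsin that also processes antigen, ran from 6840 through 8906 to 9749 CPM on day 1 and from 7952 through 16833 to 21229 CPM on day 7, a fitted difference of 0.89 ± 0.16 on the log2 scale (SE; limma-voom adjusted p = 0.000206). Of the 8 day 7 libraries, replicate 8 alone fell within the day 1 range. Sugar-cleaving enzymes that rose included Man2b1 (1.21 ± 0.20), Hexa (0.91), Idua (1.28) and Sgsh (2.54), and the regulator Tfe3 rose (0.98) while Tfeb (0.77) was not called. Ctsc, which activates granule proteases, fell by 1.13 ± 0.18 on the log2 scale, and the proton pump genes Atp6v1h (−0.51), Atp6v1f (−0.49) and Atp6ap2 (−0.84) fell.

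Of 30 antigen presentation genes tested, 7 rose (23.3%) and 6 fell (20%), beside 13.5% and 16% of all genes, with a median log2 fold change of −0.16. Those that rose included the class I genes H2-Q7 (2.00 ± 0.26), H2-M3 (1.20), H2-D1 (0.88) and H2-K1 (0.61), their partner B2m (0.59) and the costimulatory molecule Cd80 (1.92). H2-Q7 had a median of 14.4 CPM on day 1 (5.05 to 46.2) and 70.2 CPM on day 7 (29.7 to 141) (limma-voom adjusted p = 1.11e-05), and 6.40 CPM in the isotype control libraries (0 to 15.7). Class I genes are close in sequence and may share reads. The 6 that fell were the proteasome activators Psme1 (−1.05 ± 0.15) and Psme2 (−2.11 ± 0.21), the immunoproteasome subunits Psmb8 (−0.68) and Psmb10 (−0.57) and the chaperones Calr (−0.84) and Pdia3 (−0.74). Class II genes H2-Aa (−0.26), H2-Ab1 (−0.36), H2-Eb1 (−0.68) and Cd74 (−0.39) were not called.

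The largest rises lay outside these lists, and no shared role was tested among them. Tcp11l2 (2.85 ± 0.54), Fcrl1 (2.74 ± 0.36), Crebrf (2.40 ± 0.39), Usp35 (2.18 ± 0.40) and Ceacam1 (2.17 ± 0.32, log2 fold changes with SE) were protein-coding. Fcrl1, an Fc receptor-like protein known from B cells, ran from 2.95 to 30.0 CPM on day 1 and from 41.7 to 86.4 CPM on day 7 (limma-voom adjusted p = 1.09e-05). Crebrf, a regulator of the stress factor CREB3, ran from 1.64 to 15.5 CPM and from 18.9 to 69.6 CPM. Both had no overlap of the days. Summed B cell markers were 372 to 568 CPM on day 1 and 286 to 802 CPM on day 7. Among the 10 largest were also the long noncoding RNAs A830008E24Rik (2.74 ± 0.31) and Gm36738 (2.26 ± 0.32) and the processed transcripts 4833411C07Rik (2.28 ± 0.34) and Gm10790 (2.12 ± 0.25). Of 392 noncoding genes tested, 101 rose and 26 fell, with a median log2 fold change of 0.59, whereas of 9073 protein-coding genes 1195 rose and 1514 fell. Malat1 rose by 0.54 ± 0.20 (SE; adjusted p = 0.0419), a call that ended when any of 12 libraries was left out.

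Of 34 tested genes that respond to tissue dissociation, 9 rose (26.5%) and 6 fell (17.6%), beside 13.5% and 16% of all genes. The percent that fell was near that of all genes. The median log2 fold change was 0.19, and once the noncoding share entered as a covariate 15 rose and 5 fell. The immediate early genes Egr2 (1.20), Egr3 (1.12), Fosb (1.34) and Nr4a1 (0.90) rose, and Fos (0.38), Jun (0.38) and Egr1 (0.46) were not called. The heat shock genes Hspa8 (−1.40 ± 0.18), Hsp90ab1 (−1.28 ± 0.17) and Hsp90aa1 (−1.18 ± 0.21) fell.

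Markers of other cell types than microglia were detected at varying levels. Of 17 border-associated macrophage markers tested, 3 rose (17.6%, near the 13.5% of all genes) and 0 fell. The 3 were Stab1 (0.67 ± 0.21), Ms4a7 (1.32 ± 0.46) and Clec12a (2.07 ± 0.69). The median of the 17 markers was 0.82, or 0.37 with 1 called with the noncoding share as a covariate. Their sum ran from 224 to 941 CPM on day 1 and from 249 to 1320 CPM on day 7, and the median of the list was −1.50 in batch 3 and 0.79, 1.74 and 2.38 in batches 1, 2 and 4. Clec12a was at 147 CPM in day 7 replicate 7 and at most 43.2 CPM elsewhere, and its call ended without that library (1.57; adjusted p = 0.0708) and without any of 3 others. The calls of Ms4a7 and Stab1 ended without any of 8 and any of 3 libraries. Summed astrocyte markers were 124 to 261 CPM on day 1 and 190 to 377 CPM on day 7, neuron markers 19.6 to 44.8 and 35.1 to 173 CPM, endothelial markers 12.4 to 39.4 and 12.7 to 57.2 CPM and T and NK cell markers 5.30 to 103 and 13.6 to 99.9 CPM. Oligodendrocyte markers were 60.7 to 169 CPM on day 1 and 81.0 to 646 CPM on day 7. Of the markers tested 1 rose in each of the astrocyte (3 tested), oligodendrocyte (5), B cell (3) and T and NK cell (2) lists. Among them were Slc1a3 (0.81), Cd79b (0.76) and Il7r (2.11). So few tested markers give no share to set beside that of all genes. Of 8 monocyte markers tested, Ccr2 (1.29) and Nr4a1 (0.90) rose (25%) and 0 fell, with a median of 0.90. Without day 7 replicate 7, where monocyte and neutrophil markers stood apart, 1 rose and 1 fell, with a median of −0.10. Of the neutrophil markers 1 was tested, Csf3r (1.44), which rose. In the libraries other than day 7 replicate 7 Csf3r had a median of 157 CPM (63.9 to 368). Every other neutrophil marker had a median of 0 CPM there, so the call of Csf3r does not stand for the list. The part of other cell types in the other results was not tested.

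The change did not differ detectably between the sexes in the interaction test. With limma-voom 0 of 9651 genes (0%) had a different change in males and females at an adjusted p under 0.05, with 272 at an unadjusted p under 0.05 and a lowest adjusted p of 0.600, and edgeR called 0 with 250 at an unadjusted p under 0.05. Fitted alone, the 8 female libraries gave 2799 genes and the 8 male libraries 100, of which 73 were lower on day 7. Apoe had a log2 fold change of 2.83 in females alone and 1.33 in males alone (adjusted p = 0.110), P2ry12 1.32 and 0.49 (adjusted p = 0.464), while Tnf had −2.37 and −2.35 and Cxcl10 −3.78 and −3.91 (adjusted p = 0.00167 for both in males). Of the 2853 genes, 2834 could be fitted in males, and these 2834 had the same direction there. The 8 male libraries were part of the fit that called these genes. The shared direction is therefore partly fixed by that choice and is no separate test in males.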

How the data were processed

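Bulk RNA sequencing libraries of sorted microglia were analysed, 8 of DNL919 day 1 and 8 of DNL919 day 7. The authors aligned reads with STAR and counted them per gene with featureCounts (Subread 1.6.2) on GRCm38.p6, per the labels, and deposited raw counts for 53801 genes. All deposited counts above 0 hold at most 2 significant digits, so that values of 100 or more (7.12% of cells, 92.8% of counts) are rounded. The authors also listed, per library, its size and the scaling factor (a ratio) from edgeR, and column sums lay within −0.498% and 0.258% of the listed sizes. The deposited normalized values were not used here.

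Counts were scaled by TMM (edgeR 4.0.16) and filtered with filterByExpr (minimum count 10, total 15), which kept 9651 genes. Day and batch were fitted with limma-voom (limma 3.58.1, R 4.3.3), two-sided, with Benjamini-Hochberg adjusted p under 0.05 as the threshold. Rose and fell refer to genes that passed. CPM values use TMM factors over all 38 libraries. Values within batches are differences of mean log2(CPM + 0.5). Totals of 1.67 to 6.42 M counts per library limit low genes most. Alternatives were edgeR's quasi-likelihood test, DESeq2 1.42.0, other scalings, filters and covariates, thinned counts, 1 sex or 1 batch alone, and each library left out. The contrast, the gene lists and the tests were chosen with earlier results of these data known. Genes named were the 10 largest rises and 10 largest falls with a mean CPM of at least 20 and the same direction in 4 batches, the 3 smallest p-values in each list with 3 or more called genes, and a fixed set. Other list members in the text were chosen after their values were seen. Library measures were compared with exact permutation tests (12870 splits). The fits were tested on simulated data. Replicates are separate libraries by their labels, numbered here in accession order. Each library came from its own mouse, as the study describes its replicates. By transcripts of the sex chromosomes, 0 libraries mismatched their sex label. Some genes are not reported here.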

Additional observations from a re-analysis of the deposited data

Results flagged for a closer look

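The values in this section are single libraries that lay far from the other 7 of their day by Dixon's 95% criterion. Of 238 gene levels and marker sums examined, 36 did so. Chance alone flags about 1 in 20 groups. No cause was tested.

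Day 7 replicate 7 held the highest neutrophil sum, 48070 CPM with 693 CPM next, and the highest monocyte sum, 3772 CPM with 475 CPM next. In the same library Birc5 was at 96.5 CPM (29.8 next), Clec12a at 147 CPM (43.2 next) and Ceacam1 at 108 CPM (63.6 next).

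Day 7 replicate 3 was high in Ch25h (51.0 CPM, 12.2 next), Cxcl11 (76.4 CPM, 10.7 next), Cxcl10 (510 CPM, 247 next) and summed oligodendrocyte markers (646 CPM, 215 next). Day 7 replicate 2 was high in Apitd1 (10.2 CPM) and Ifnb1 (9.15 CPM). Day 7 replicate 8 was low in Eif2s1 (23.9 CPM, 61.7 next) and high in Hsp90aa1 (268 CPM), Inpp5d (895 CPM, 482 next) and Usp35 (109 CPM, 41.1 next). Day 7 replicate 6 was high in Spp1 (54.3 CPM) and A830008E24Rik (580 CPM, 293 next), and day 7 replicate 4 in summed mural cell markers (164 CPM, 11.9 next).

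Day 1 replicate 8 was low in Gpr84 (830 CPM, 1790 next) and high in Inpp5d (469 CPM, 228 next), Ltc4s (1263 CPM, 605 next), Maf (505 CPM, 278 next) and A830008E24Rik (137 CPM, 44.2 next). Both libraries numbered 5, of batch 3, were high in Tmem119 (2855 CPM on day 1 and 3409 CPM on day 7) and Csf1r (3140 CPM and 3864 CPM). Day 1 replicate 5 was also high in Apoe (3854 CPM, 1195 next), Acsl1 (27.1 CPM) and Tcp11l2 (21.4 CPM), and day 7 replicate 5 was low in Manf (295 CPM, 388 next). Day 1 replicate 2 was high in Ifnb1 (217 CPM, 49.2 next) and in summed T and NK cell markers (103 CPM), day 1 replicate 1 in Lpl (729 CPM, 370 next) and day 1 replicate 4 in summed neutrophil markers (347 CPM). Day 1 replicate 1 was low in summed mural cell markers, at 0 CPM with 4.71 CPM next.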

How the results depend on the processing

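The count of 2853 changed genes was 2787 with edgeR, 3257 with DESeq2 and 2321 to 3103 with 1 library left out. It fell to 100 in males alone (27 higher, 73 lower), and was 1327 in batch 1 alone (579 higher, 748 lower), 1373 in batch 2 (522 and 851), 0 in batch 3 (0 and 0) and 46 in batch 4 (9 and 37), each with fewer samples. With the noncoding share as a covariate 1941 genes changed, 1011 of them lower. Of the 2853 genes of the main fit, 1568 were still called with this covariate. In the main fit 1517 genes changed at least 2-fold. The count for a sex difference was 1 with no low-count filter and 0 to 2 with 1 library left out.

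Day 7 minus day 1 in total counts was −1.73 M in females (exact permutation p = 0.0571) and −1.50 M in males (p = 0.171). Genes with a count differed by −791 in males (exact permutation p = 0.314), the noncoding share by 1.53 percentage points in females (p = 0.0571) and 1.93 in males (p = 0.200), and the mitochondrial share by 0.745 in females (p = 0.0571) and 0.923 in males (p = 0.229). With 4 libraries against 4 the exact test has 70 splits.

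The log2 fold changes of some genes took the other sign, and the cause was not tested. Tmem119 was 0.0018 with edgeR, 0.0019 with DESeq2, 0.023 with quality weights, 0.91 with the noncoding covariate, 0.065 in batch 1, −0.39 to 0.22 with 1 library left out and 0.32 without day 7 replicates 6 and 8, an alternative chosen after seeing the data. With the covariate Axl was 0.072, Igf1 −0.27 and Malat1 −0.014. Malat1 is itself counted in the noncoding share and makes up much of it. Its value with the covariate therefore cannot show whether its rise depends on the share. In males Mki67 was 0.63, Axl 0.23, Tyrobp −0.077 and Igf1 −1.07. In batch 4 Birc5 was 1.14, Mki67 2.41, Clec7a 0.27, Axl 0.69, Tyrobp −0.25, Itgax −0.63 and Trem2 −0.23. Spp1 was 0.82 in batch 1 and 0.25 in batch 3, Clec12a −1.72 in batch 1, Itgax −0.25 in batch 2, and in batch 3 Igf1 was −2.80 and Ms4a7 −0.28. With 1 library left out Axl ran from −0.23 to 0.079 and Tyrobp from −0.038 to 0.17. No paired analysis was possible because the labels give no replicate numbers and each library came from its own mouse. No mouse was measured on both days, so the missing numbers hid no pairing by mouse.

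Depth limits low genes most, and rounding of the deposited counts adds error to values of 100 or more.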
